A study of Mus musculus with 6 samples.

Results

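Of the 6 libraries of the series, 2 were set directly against each other: IL4-treated mouse macrophages that also received 25-HC, and IL4-treated macrophages that also received PF429424. The members were chosen by the treatment on their labels, and the IL4 library did not enter the ratio. All 6 libraries came from C57BL/6 bone marrow cells that were grown for 5 days in 10 ng/ml M-CSF, on which marrow progenitors become macrophages, and were then treated for 24 hours. IL4, the cytokine of alternative macrophage activation, was present in every library, alone or with fatostatin, betulin, 25-HC, PF429424 or 1,10-Phen. No library without IL4 was analysed here. Each treatment has 1 library, so no difference below has a replicate check, no p-value is given, and every value compares 2 libraries rather than 2 conditions.

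The labels give no dose for either compound, so the time is matched and the doses cannot be said to be. The labels do not spell out 25-HC, which in this field is the usual short form of an oxysterol, a hydroxylated cholesterol. PF429424 is a code name, for which no structure or target is given here. The series title is about the transcription factor SREBP2 and alternative activation, and the comparison addresses how far the transcriptomes under these 2 compounds differ from each other.

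As background, macrophages control their sterol content through opposed programmes. SREBP transcription factors are held in the endoplasmic reticulum when sterol is plentiful and, once cut and released, switch on genes of cholesterol synthesis, cholesterol uptake and fatty acid synthesis. LXR nuclear receptors bind oxysterols and switch on genes that export cholesterol, such as the transporters Abca1 and Abcg1. A separate stress pathway, in which ATF4 is translated when protein synthesis is slowed, raises genes for amino acid synthesis and uptake.

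The library with 25-HC held 21169667 estimated counts and the library with PF429424 held 21010378. Levels are given as CPM, the count over the scaled library size, and a ratio is the log2 of 25-HC over PF429424, so that positive values mean higher with 25-HC. A gene was called when it differed by at least 2-fold and its exact 95% counting interval held no value of 1. Such an interval reflects counting error alone, not the variation between cultures.

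Of 11898 genes compared, 439 were called, which is 3.69% of them. The 224 genes higher with 25-HC were 1.88% of all genes and the 215 higher with PF429424 were 1.81%. The even split depends on the scaling: with library totals in place of scaling factors, 287 genes were higher with 25-HC and 170 with PF429424, and the median ratio of all genes moved from -0.00248 to 0.0977. On log2(FPKM + 1) the split was 93 against 53, with a median over all genes of 0.0771. In the scaled data 88.4% of genes lay within 1.5-fold, and the 5th and 95th percentiles of the ratios were -0.64 and 0.62. The large ratios leaned to one side, with 47 genes at least 4-fold higher with 25-HC against 26 at least 4-fold higher with PF429424, and 14 against 8 at 8-fold.

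**Figure D1:**
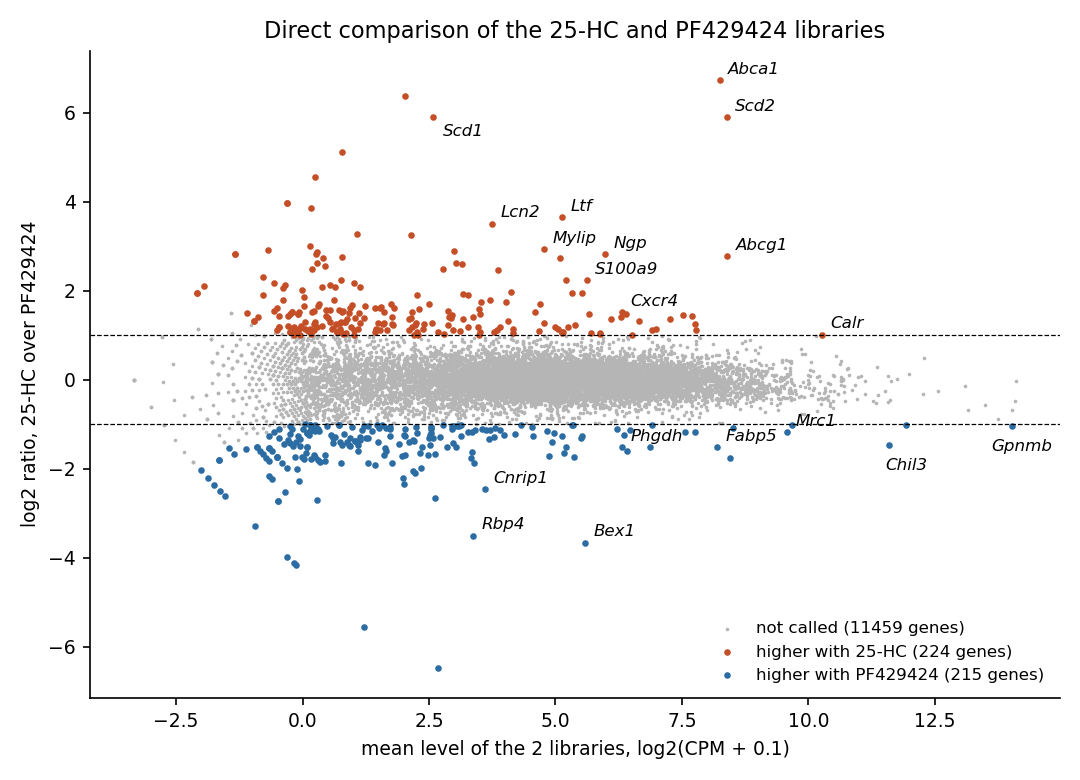
Log2 ratio of the 25-HC library over the PF429424 library (vertical axis) against the mean level of both libraries as log2(CPM + 0.1) (horizontal axis), 1 point per gene; the dashed lines mark 2-fold. Of the genes called, 224 lie above the upper line and 215 below the lower one, and Abca1 and Scd2 stand apart at high level with ratios of 6.74 and 5.90.

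Among the 15 pairs that the 6 libraries form, this pair ranked 5th from the fewest calls. The betulin library differed by a like number of genes from each of them, with 431 calls (3.62%) against 25-HC and 407 (3.42%) against PF429424. The fatostatin library gave 853 calls (7.17%) against 25-HC and 635 (5.34%) against PF429424. Against the IL4 library 25-HC gave 1066 calls (8.96%) and PF429424 gave 966 (8.12%), and these 2 comparisons share the IL4 library. The pairs share libraries throughout, so their counts are not independent of each other.

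**Figure D2:**
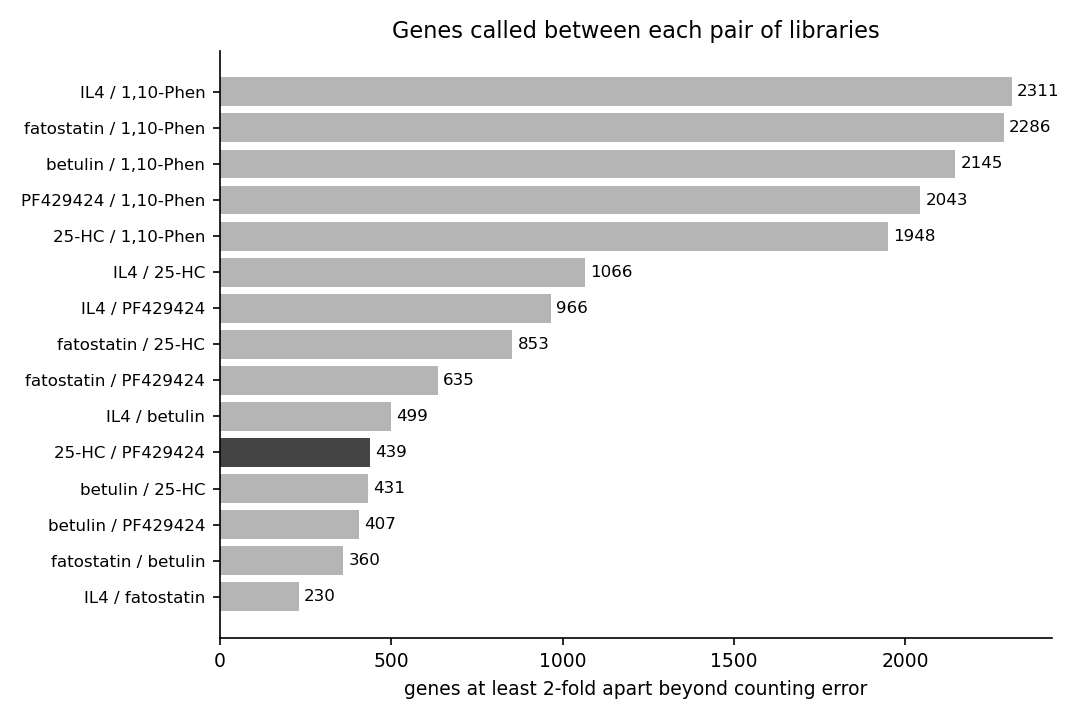
Number of genes at least 2-fold apart beyond counting error (horizontal axis) in each of the 15 pairs of libraries, with the pair of 25-HC and PF429424 in dark grey. Its 439 genes are fewer than the 966 and 1066 that separate either library from IL4 alone, and every pair with 1,10-Phen lies at 1948 or more.

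Of the 224 genes higher with 25-HC, the 25-HC library was the highest of all 6 for 109, and of the 215 higher with PF429424, the PF429424 library was the highest for 66. Over all genes compared those shares were 17.3% for 25-HC and 14.5% for PF429424. The PF429424 library was the lowest of the 6 for 106 of the 224 genes and the 25-HC library for 131 of the 215, against 1425 and 1902 of all 11898 genes, with ties given to the library listed first. The IL4 library lay between the 2 for 117 of the 224 and 106 of the 215 genes, above both for 52 and 77, and below both for 55 and 32. Over all genes it lay between them for 24.3%, above both for 36.4% and below both for 39.3%. Called genes were chosen for a gap between these 2 libraries. That choice alone raises how often IL4 lies between them and how often either library is the highest or lowest. Genes called in this pair thus include some for which both libraries lay on the same side of IL4 at different distances and some for which they stood on either side of it.

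The largest ratio among the named genes was that of a cholesterol export gene. Abca1, which moves cholesterol and phospholipid out of the cell (NCBI Gene 11303, GRCm38.p6 chr4:53030789-53159988), was at 603 CPM with 25-HC and 5.56 CPM with PF429424. In the other libraries it was at 36.1 CPM with IL4 alone, 46.6 with fatostatin, 31.7 with betulin and 53.9 with 1,10-Phen. The 25-HC library was thus the highest of the 6 and the PF429424 library the lowest. The difference was 107-fold, a log2 ratio of 6.74 with a counting interval from 6.49 to 7.04, from 13252 and 113 counts.

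The 250 bases before the RefSeq start site of Abca1 (GRCm38.p6, chr4:53159896-53160145, minus strand) are shown because this gene carries the largest ratio. Capitals mark a match to a direct repeat of AGGTCA spaced by 4 bases, the kind of element LXR binds, found on the reverse strand with at most 3 mismatches over its 12 repeat bases. Its first base lies at -67 from the start site, counting the base before the start as the first. That start site lies inside the gene span given above, which runs to 53159988, so the match also falls within that span.
Abca1: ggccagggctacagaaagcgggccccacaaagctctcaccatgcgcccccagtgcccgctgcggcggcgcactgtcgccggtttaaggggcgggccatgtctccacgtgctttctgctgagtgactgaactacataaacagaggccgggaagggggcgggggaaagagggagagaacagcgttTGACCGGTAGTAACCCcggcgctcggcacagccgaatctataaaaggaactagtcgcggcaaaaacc

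Matches at this tolerance are common. They stand in 20.9% of all 27025 promoter windows of this length and in 18.3% of the 9574 compared genes with a window. Among called genes, 36 of 168 windows (21.4%) higher with 25-HC and 36 of 167 (21.6%) higher with PF429424 hold one, and so do 3 of 11 windows of the cholesterol export list. The match in Abca1 is a description of these letters and shows no binding.

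Abcg1, the partner transporter that loads cholesterol onto HDL, was at 589 CPM with 25-HC and 85.5 CPM with PF429424, a log2 ratio of 2.78 (interval 2.71 to 2.86). The other 4 libraries lay between 88.9 and 142 CPM, so only the 25-HC library stood far from the rest. Mylip, a ubiquitin ligase gene known as an LXR target, was at 48.1 CPM with 25-HC and 6.20 CPM with PF429424, a log2 ratio of 2.94 (2.69 to 3.23). Its other libraries ran from 10.6 to 35.03 CPM, and again the pair took both ends of the range.

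The phospholipid transfer protein gene Pltp was at 16.7 CPM with 25-HC and 5.46 with PF429424 (log2 ratio 1.59). Arl4c, a small GTPase tied to cholesterol transport, was at 306 CPM with 25-HC and 128 with PF429424 (1.25). Arl4c was at 349 CPM with IL4 alone, so here the 25-HC library was close to IL4 (-0.19) and the PF429424 library below it (-1.44).

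Of the 14 compared genes in the list of LXR targets and cholesterol export, 5 were called higher with 25-HC and none with PF429424, beside 1.88% and 1.81% over all genes. The median ratio was 0.43, against -0.00248 for all genes, and 9 of 14 ratios were above 0. The other 9 members did not pass 2-fold. Lpcat3, which remodels phospholipids, had a ratio of 0.66, the lipoprotein lipase gene Lpl 0.50 and Srebf1 0.37. The apolipoprotein gene Apoe was at -0.31 and the receptor gene Nr1h3 itself, which encodes LXR alpha, at -0.37. Against IL4 the list's median was 0.14 with 25-HC and -0.52 with PF429424.

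**Figure D3:**
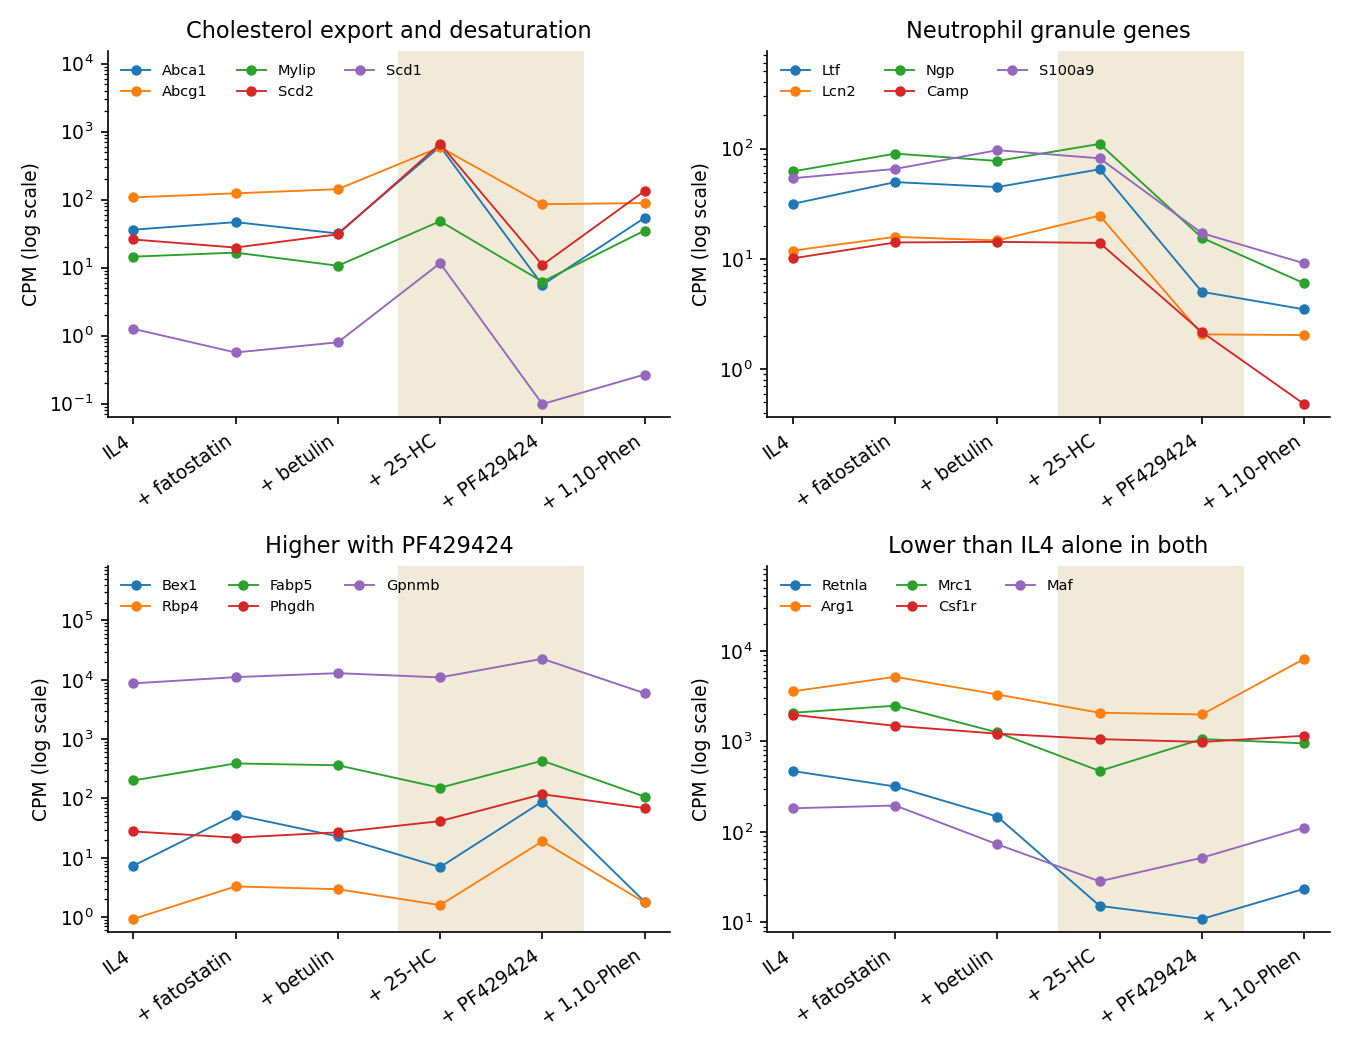
Level of 20 genes in CPM (vertical axes, log scale) in the 6 libraries (horizontal axes), 1 point per library, with lines joining the points of a gene only to guide the eye; the shaded band holds the 2 libraries compared. Abca1 runs from 603 CPM with 25-HC to 5.56 with PF429424, granule genes such as Ltf drop from 64.8 to 5.02, Bex1 runs the other way from 6.97 to 88.9, and Retnla is low in both.

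The 2 desaturase genes Scd2 and Scd1 had the next largest ratios among the named genes. Scd2, a stearoyl-CoA desaturase that places the double bond in newly made fatty acids (GRCm38.p6 chr19:44293676-44306864), was at 659 CPM with 25-HC and 10.9 CPM with PF429424. In the remaining libraries Scd2 was at 25.9 CPM with IL4 alone, 19.7 with fatostatin, 30.9 with betulin and 134 with 1,10-Phen. The log2 ratio was 5.90 (5.72 to 6.11), a 59.8-fold difference.

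Its neighbour Scd1, the main desaturase of liver and fat, was low throughout. It was at 11.6 CPM with 25-HC and rested on 2 counts with PF429424, so its log2 ratio of 5.91 has a wide interval, from 5.01 to 9.94. With IL4 alone Scd1 was at 1.26 CPM, and the other 3 libraries lay below that. Acsl3, which activates long-chain fatty acids, was called as well, at 12.9 CPM with 25-HC and 4.92 with PF429424 (1.37). That call is lost on log2(FPKM + 1), where the ratio was 1.00.

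The core synthesis enzymes stood just under the threshold. Fasn, the fatty acid synthase, was at 184 CPM with 25-HC and 92.6 with PF429424 (0.99), and Acaca, which makes its substrate malonyl-CoA, was at 97.9 and 51.9 CPM (0.91). With library totals both would be called, at 1.09 and 1.01. With IL4 alone Fasn was at 84.2 CPM and Acaca at 40.0, both nearer the PF429424 library. The elongase gene Elovl5 had a ratio of 0.62 and the desaturase gene Fads2 0.50.

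In all, 3 of 19 fatty acid genes were called higher with 25-HC and none with PF429424, beside 1.88% and 1.81% of all genes. The list's median was only 0.13 and 9 of the 19 ratios were below 0, among them the ATP citrate lyase gene Acly at -0.27 and the desaturase gene Fads1 at -0.22. The high ratios of the list thus belong to a few of its genes.

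Cholesterol synthesis did not separate the 2 libraries by as much as 2-fold at any step. None of 21 enzymes was called in either direction, beside 3.69% of all genes, a share at which a short list may hold no call. Their median ratio was -0.04, with 9 above 0 and 12 below. The signs are within the reach of the scaling, since 14 were above 0 and 7 below with library totals. Mvd, a mevalonate pathway enzyme, was at 19.0 CPM with 25-HC and 11.2 with PF429424, a ratio of 0.76.

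Other steps had ratios below 0. Dhcr7, which makes cholesterol from its last precursor in one branch, was at 31.2 CPM with 25-HC and 56.7 with PF429424, a ratio of -0.86 (-0.999 to -0.723). IL4 alone gave 52.0 CPM, so the 25-HC library was the lower one. Msmo1 had a ratio of -0.31 and Mvk one of -0.33. Against IL4 the medians of the list were -0.29 with 25-HC and -0.22 with PF429424.

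The SREBP machinery was close to even. None of 17 genes of SREBP processing and sterol uptake was called, beside 3.69% of all genes, with a median of 0.04. Srebf2, which encodes SREBP2, was at 63.8 CPM with 25-HC and 60.0 with PF429424, a ratio of 0.09 whose interval (-0.02 to 0.20) holds no difference. The retention factor gene Insig1 was at 29.7 and 28.4 CPM (0.07), and Srebf1 at 83.7 and 64.9 CPM (0.37).

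Rnf145, a ubiquitin ligase gene of sterol regulation, was at 116 CPM with 25-HC and 71.2 with PF429424 (0.71). The lysosomal cholesterol carriers went the other way, Npc1 with a ratio of -0.42 and Npc2 with -0.52.

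Among 14 genes of sterol esterification and oxysterol metabolism, 1 was called, higher with PF429424 (7.14%, beside 1.81% of all genes). It was Osbpl5, an oxysterol-binding-protein relative, at 1.91 CPM with 25-HC and 5.37 with PF429424 (-1.44). On log2(FPKM + 1) its ratio of -0.66 is no longer a call. Ch25h, the enzyme that makes an oxysterol from cholesterol, was at 4.46 and 7.04 CPM (-0.65). Gramd1b, which carries cholesterol from the plasma membrane, was above IL4 alone (97.1 CPM) in both, at 271 CPM with 25-HC and 193 with PF429424.

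The fatty acid carriers were higher with PF429424. Fabp5 was at 152 CPM with 25-HC and 433 with PF429424, a ratio of -1.51 (-1.57 to -1.46), and the IL4 library lay between them at 202 CPM. Fabp4 was at 79.4 and 161 CPM, a ratio of -1.02 that falls to -0.92 with library totals and is then not called. Dgat2, a triglyceride synthesis enzyme, was higher with 25-HC (1.26) on 34 and 12 counts. Over 17 genes of lipid droplets and fatty acid use the median was -0.01, so these genes did not lean together.

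Granule genes of neutrophils formed the list with the largest median among lists with at least 5 members compared. The cells are labelled as macrophages, and these genes encode proteins of neutrophil granules and their precursors in marrow. Ltf, which encodes lactoferrin, was at 64.8 CPM with 25-HC and 5.02 with PF429424. In the other libraries it was at 31.5 CPM with IL4 alone, 49.6 with fatostatin, 44.7 with betulin and 3.48 with 1,10-Phen. The PF429424 library thus stood with 1,10-Phen and apart from the other 4. The log2 ratio was 3.66 (3.40 to 3.99).

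Lcn2, a secreted iron-siderophore binder, was at 24.6 CPM with 25-HC and 2.07 with PF429424 (3.51). The granule protein genes Ngp, at 110.1 and 15.5 CPM (2.82), and Camp, at 13.9 and 2.17 CPM (2.63), had the same order. The calcium-binding alarmins S100a9, at 81.5 and 17.1 CPM (2.25), and S100a8, at 27.9 and 6.99 CPM (1.98), followed. Cd177, a neutrophil surface protein gene outside the list, was at 7.88 and 0.738 CPM (3.26).

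Of 19 genes in the list, 16 passed the expression limit. Of these, 11 (68.8%) were called higher with 25-HC and none with PF429424, beside 1.88% and 1.81% of all genes. The median ratio was 1.505 and all 16 ratios were above 0, here under each scaling. The smallest was 0.19, so the small shift between scalings could not change these signs. On log2(FPKM + 1) the number called was 7. The members that were not called are Mmp8 (0.26), Csf3r (0.19), Cxcr2 (0.49), Mpo (0.61) and Elane (0.73). Mpo, Elane and the called Prtn3 (1.22) encode primary granule proteins, and their ratios were below those of the secondary granule genes Ltf, Lcn2, Ngp and Camp. Mmp8 was at 456 CPM with 25-HC and 382 with PF429424, the most abundant member in both.

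The summed level of all 19 markers was 845 CPM with 25-HC and 475 with PF429424, and ran from 475 to 922 CPM over the 6 libraries. Mmp8 was most of it in both libraries of the pair, but 96.7 of 492 CPM with fatostatin. Ly6g, a defining neutrophil surface gene, had 12 counts with 25-HC and 0 with PF429424. Retnlg had 31 counts and 0, which is at least 9.56-fold higher with 25-HC against a floor of 3 counts per library. In RNA from whole cultures, fewer cells of a type and less RNA per cell cannot be told apart. The part of the number of neutrophil-lineage cells in these differences was not tested.

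Apart from lipid and neutrophil genes, the highest ratios with 25-HC among genes with at least 50 counts and 5 CPM in either library were those of Mefv, Fbxo32, Flrt3, Atp2b4 and Zfp469. Mefv, which encodes the inflammasome sensor pyrin, was at 13.9 CPM with 25-HC and 1.77 with PF429424 (2.90), while the other 4 libraries lay between 7.50 and 15.3 CPM. In this case the PF429424 library was the one that stood apart. Fbxo32, a ubiquitin ligase known from muscle wasting, was at 59.3 and 8.76 CPM (2.74) against 6.85 with IL4 alone, and the 25-HC library stood apart.

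Flrt3, a membrane adhesion protein gene, was at 15.2 CPM with 25-HC and 2.41 with PF429424 (2.605), and betulin was higher still at 18.9 CPM. The calcium pump gene Atp2b4 was at 11.6 and 1.97 CPM (2.50), a call that is lost on log2(FPKM + 1) with 0.99. Zfp469 was at 24.5 and 4.38 CPM (2.46), both above the 1.63 CPM of IL4 alone.

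The largest ratio towards PF429424 among the named genes was that of Bex1, a small brain-expressed X-linked protein gene. Bex1 was at 6.97 CPM with 25-HC and 88.9 with PF429424. In the other libraries it was at 7.36 CPM with IL4 alone, 53.2 with fatostatin, 22.9 with betulin and 1.82 with 1,10-Phen. The 25-HC library was near IL4 (-0.08) and the PF429424 library far above it (3.58). The direct log2 ratio was -3.66 (-3.92 to -3.43).

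Rbp4, the carrier of retinol in blood, was at 1.59 CPM with 25-HC and 19.0 with PF429424, a ratio of -3.50 (-4.12 to -3.07). The other 4 libraries lay between 0.931 and 3.29 CPM, so only the PF429424 library stood far from the rest. Tspan7, a tetraspanin gene (-2.35), Cox6a2, a muscle-type subunit of cytochrome oxidase (-2.08), and Slc27a6, a fatty acid transporter gene (-2.04), were also highest of the 6 with PF429424, at 6.65, 7.43 and 7.24 CPM.

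In a further set of genes the 25-HC library was the low one. Cnrip1, which encodes a cannabinoid receptor interacting protein, was at 3.64 CPM with 25-HC and 20.4 with PF429424 (-2.45), with the other 4 between 7.93 and 34.3 CPM. Il16, a cytokine gene, was at 4.51 and 15.5 CPM (-1.76), with the others from 8.44 to 23.1. Hpse, the heparan sulfate cutting enzyme, was at 13.6 and 44.7 CPM (-1.71), with the others from 30.9 to 56.5.

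Tmem154 was at 19.0 CPM with 25-HC and 63.6 with PF429424 (-1.74), and Slc36a2, an amino acid transporter gene, at 1.32 and 6.45 CPM (-2.21). Lhx2, a homeobox gene, had a ratio of -1.86 and Ugt2b35, a glucuronosyltransferase gene, one of -1.71, which is -0.79 and no call on log2(FPKM + 1). Egln3, a hypoxia-induced prolyl hydroxylase gene, was at 1.96 and 8.02 CPM (-1.98), far under its 618 CPM with 1,10-Phen. Zfp966 (-2.65) and Hist1h2ap (-1.87) belong to families of near-identical copies whose reads the authors' estimated counts could split, so their values are uncertain.

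Genes of alternative activation were called only towards PF429424, 6 of 34 and none towards 25-HC, beside 1.81% and 1.88% over all genes. On log2(FPKM + 1) the number was 3, and without the expression limit 2 further genes were called towards 25-HC. Chil3, the chitinase-like protein Ym1, was at 1653 CPM with 25-HC and 4557 with PF429424, a ratio of -1.46 (-1.48 to -1.45). IL4 alone gave 3206 CPM, so 25-HC lay below IL4 (-0.96) and PF429424 above it (0.51). Chil4, a close copy, had a ratio of -1.25, and reads of these genes may be split between them.

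Mrc1, the mannose receptor, was at 472 CPM with 25-HC and 1060.4 with PF429424 (-1.17), both below the 2071 CPM of IL4 alone. The transferrin receptor gene Tfrc was at 116 and 261 CPM (-1.17), against 571 with IL4 alone. Pdcd1lg2, the ligand PD-L2, was at 8.06 and 17.7 CPM (-1.13), against 49.97 with IL4 alone, and is not called on log2(FPKM + 1) at -0.80. For these 3 genes both compounds lay below IL4, and 25-HC the further.

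The sixth gene, the chemokine gene Ccl8, had 0 counts with 25-HC and 9 with PF429424, at least 3.24-fold lower with 25-HC against the floor. The list's median was -0.13, with 13 ratios above 0 and 21 below. The defining genes Arg1 and Retnla were not called, and Arg1 was close to even. Arg1, the arginase that marks this state, was at 2071 CPM with 25-HC and 1984 with PF429424, a ratio of 0.06 (0.04 to 0.08), against 3573 with IL4 alone. Retnla, the resistin-like protein Fizz1, was at 15.3 and 10.9 CPM (0.48), against 470.5 with IL4 alone. The pair therefore shared the low Retnla level, with ratios to IL4 of -4.94 and -5.42.

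Defining macrophage genes were present in both libraries. Csf1r, the M-CSF receptor, was at 1059.7 CPM with 25-HC and 987 with PF429424 (0.10), and Adgre1, which encodes F4/80, at 394 and 479 CPM (-0.28). The summed level of all 25 macrophage markers was 12930 CPM with 25-HC and 17430 with PF429424, with a range of 12930 to 20250 over the 6 libraries and none at 0. Of these markers, 2 (8.0%) were called higher with 25-HC and 2 (8.0%) with PF429424, beside 1.88% and 1.81% of all genes. The median was -0.05.

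Cd14, the co-receptor for bacterial lipopolysaccharide, was at 123 CPM with 25-HC and 44.3 with PF429424 (1.47), where IL4 alone gave 44.1. The chemokine receptor gene Cx3cr1 had a ratio of 2.09 on 76 and 15 counts. Siglec1 was at 47.1 and 101 CPM (-1.10) and Lyz2, the lysozyme of macrophages, at 2602 and 5246 CPM (-1.01). With library totals the last 2 are at -0.9997 and -0.91 and are not called. The transcription factor gene Maf was at 28.5 and 51.9 CPM (-0.86), against 183 with IL4 alone.

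**Figure D4:**
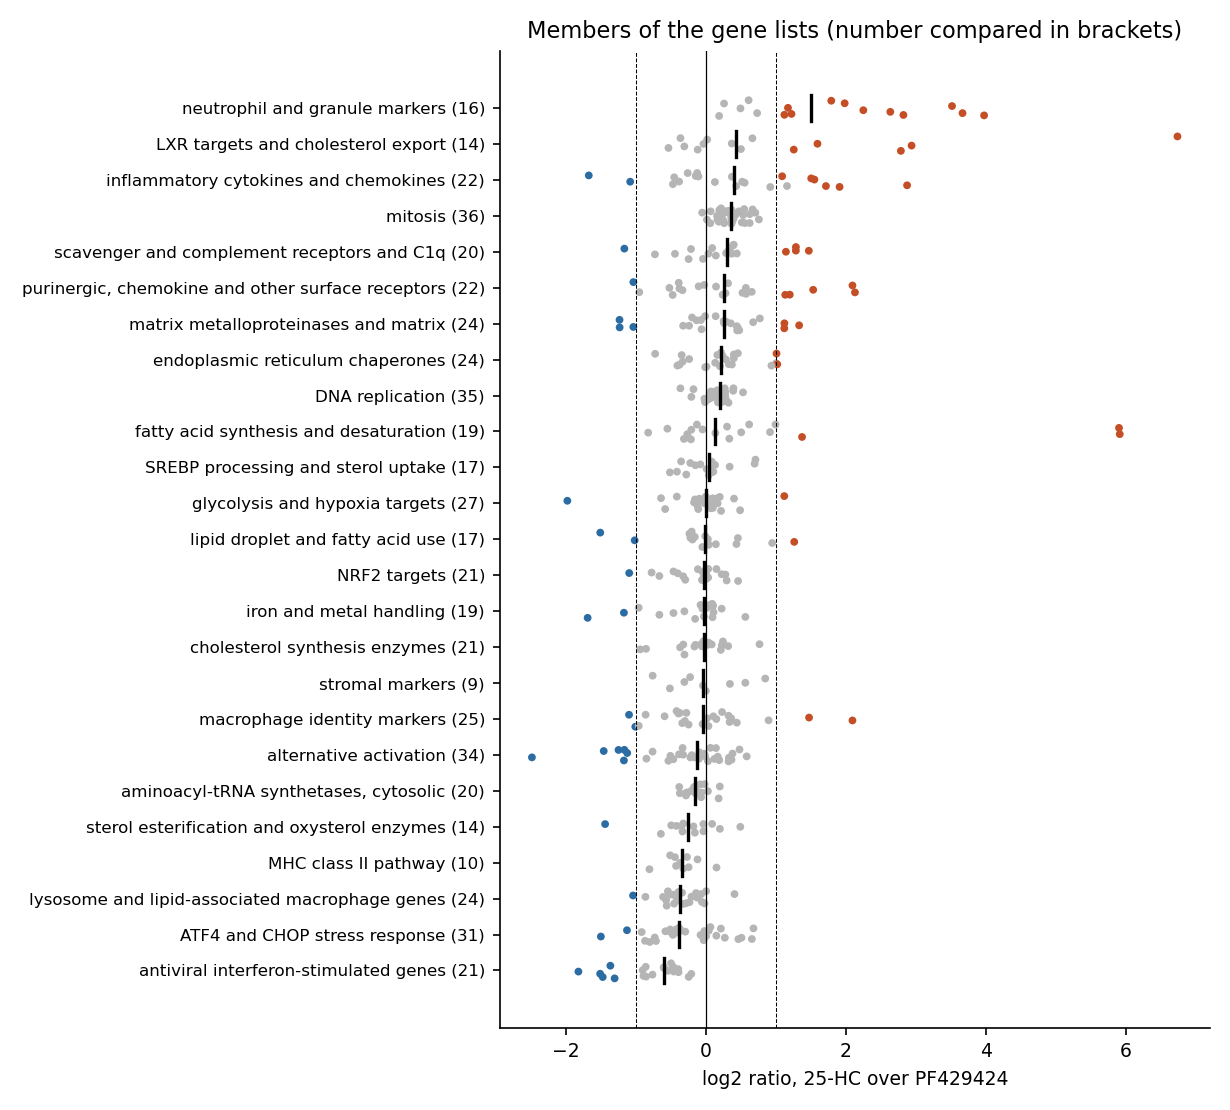
Log2 ratio of 25-HC over PF429424 (horizontal axis) for the members of each gene list with at least 5 members compared (vertical axis), 1 point per gene; black bars are list medians, dashed lines mark 2-fold, orange points were called higher with 25-HC and blue points higher with PF429424. Medians run from -0.61 for the antiviral genes to 1.505 for the neutrophil and granule markers, and most lists lie within 0.5 of 0.

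Genes of the ATF4 stress response leaned towards PF429424. Phgdh, the first enzyme of serine synthesis, was at 41.5 CPM with 25-HC and 118 with PF429424, against 27.8 with IL4 alone, a ratio of -1.50 (-1.62 to -1.40). Chac1, which breaks down glutathione, was at 6.60 and 14.6 CPM, against 0.512 with IL4 alone, a ratio of -1.13 (-1.44 to -0.85) that is -0.89 on log2(FPKM + 1). Asns, the asparagine synthetase, was at 116 and 202 CPM, against 21.7 with IL4 alone, a ratio of -0.80 that was not called. All 3 were thus above IL4 in both libraries and highest of the pair with PF429424.

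The factors themselves did not share this order. Atf4 was at 453 CPM with 25-HC and 434 with PF429424 (0.06), against 160 with IL4 alone. Ddit3, which encodes CHOP, was at 73.8 and 46.1 CPM (0.68), the phosphatase subunit gene Ppp1r15a at 54.6 and 34.7 CPM (0.65), and Trib3 at 32.6 and 34.4 CPM (-0.08). Psph (-0.72) and Psat1 (-0.58), the other serine synthesis enzymes, were on the side of Phgdh, and so were Atf5 (-0.73) and the neutral amino acid transporter gene Slc1a4 (-0.87).

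Of 31 genes in this list, 2 (6.45%) were called higher with PF429424, beside 1.81% of all genes, and none with 25-HC, with 21 ratios below 0, 9 above and a median of -0.39. Stc2 had 0 counts in both. Against IL4 the medians were close, 0.88 with 25-HC and 0.92 with PF429424. Cytosolic aminoacyl-tRNA synthetases charge tRNAs, and several are known to be induced by ATF4. They had no calls among 20, beside 3.69% of all genes. Their median was -0.16, with 17 ratios below 0, or 13 with library totals. Their medians against IL4 were 0.57 with 25-HC and 0.85 with PF429424.

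The promoters of Chac1 and Asns from this list, and of Rbp4 with the second largest named ratio towards PF429424, are shown because each holds the core of the composite element that ATF4 binds with C/EBP proteins, TGATGNAA, in capitals on either strand. They are the 250 bases before the RefSeq start sites in GRCm38.p6: chr2:119350992-119351241 on the plus strand for Chac1, chr6:7693210-7693459 on the minus strand for Asns, and chr19:38125322-38125571 on the minus strand for Rbp4. The first base of the match lies at -193, -23 and -76 from the start. The promoter of Cd5l, a gene called higher with 25-HC (1.28), also holds this core and is not shown.
Chac1: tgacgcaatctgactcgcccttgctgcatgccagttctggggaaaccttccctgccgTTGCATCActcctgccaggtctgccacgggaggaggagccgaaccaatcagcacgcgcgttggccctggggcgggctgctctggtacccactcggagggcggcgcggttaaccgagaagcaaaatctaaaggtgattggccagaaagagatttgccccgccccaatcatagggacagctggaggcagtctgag
Asns: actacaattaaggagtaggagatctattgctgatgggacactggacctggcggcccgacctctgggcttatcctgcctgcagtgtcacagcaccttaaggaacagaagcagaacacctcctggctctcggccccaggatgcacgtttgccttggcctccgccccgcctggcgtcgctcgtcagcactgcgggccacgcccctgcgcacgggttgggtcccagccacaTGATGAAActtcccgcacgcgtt
Rbp4: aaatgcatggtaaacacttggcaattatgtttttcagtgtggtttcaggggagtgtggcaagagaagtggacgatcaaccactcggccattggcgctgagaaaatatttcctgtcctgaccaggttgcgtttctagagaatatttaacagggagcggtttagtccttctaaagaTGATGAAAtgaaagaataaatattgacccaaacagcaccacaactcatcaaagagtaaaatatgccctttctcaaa

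These letters stand in 3.91% of all promoter windows and in 2.56% of those of compared genes. They stand in 7 of 28 windows of the ATF4 list (25.0%), in 8 of 168 windows of genes called higher with 25-HC (4.76%) and in 10 of 167 of genes called higher with PF429424 (5.99%). The core of the sterol regulatory element that SREBP binds, searched as TCACNCCAC, stands in 1.16% of windows of compared genes and in 1 of 16 windows of the cholesterol synthesis list.

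Chaperones of the endoplasmic reticulum leaned the other way. Calr, which encodes calreticulin, was at 1652 CPM with 25-HC and 816 with PF429424, a ratio of 1.02 (0.99 to 1.04), against 2235 with IL4 alone. Sdf2l1 was at 122 and 60.6 CPM (1.01). Hspa5, which encodes the chaperone BiP, was at 1511 and 756 CPM, a ratio of 1.00 just under the threshold, and is called with library totals (1.10) and with DESeq2 size factors. With IL4 alone Hspa5 was at 1461 CPM, so the PF429424 library was the one below.

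Of 24 chaperone genes 2 (8.33%) were called higher with 25-HC, beside 1.88% of all genes, and none with PF429424. With library totals the number was 4. The median was 0.22, and 17 ratios were above 0. Creld2 had a ratio of 0.93, and is called with library totals at 1.03. Sec61b, a subunit of the translocation channel, was at 55.1 and 91.4 CPM (-0.73), opposite to most of the list.

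Antiviral genes that interferon induces were the list with the lowest median, -0.61, and all 21 ratios were below 0 under each scaling. The ratio nearest 0 was -0.21, so the small shift between scalings could not change these signs. Called were 5 (23.8%), each higher with PF429424, beside 1.81% of all genes. On log2(FPKM + 1) the number was 1. Most were at low level: Rtp4, a receptor transporter protein gene, was at 3.64 CPM with 25-HC and 10.6 with PF429424 (-1.51), and Cmpk2, a mitochondrial nucleotide kinase gene, at 3.32 and 8.37 CPM (-1.31). Ifit1 (-1.48), Ifit3 (-1.37) and Ifi44 (-1.82) rested on at most 58 counts in a library.

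The remaining 16 members were not called. Oasl2, a relative of the oligoadenylate synthetases, was at 23.9 CPM with 25-HC and 43.5 with PF429424 (-0.86). Usp18, which removes ISG15 from proteins, was at 9.02 and 17.0 CPM (-0.91), both below the 27.3 CPM of IL4 alone. Against IL4 the medians lay on either side, -0.43 with 25-HC and 0.35 with PF429424.

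Among inflammatory cytokine genes, 6 of 22 (27.3%) were called higher with 25-HC and 2 (9.09%) with PF429424, beside 1.88% and 1.81% of all genes. The median was 0.40, with 13 ratios above 0 and 9 below. With a CPM of at least 5 required in either library, 15 genes remained, 3 called higher with 25-HC and 1 with PF429424. Their median was 0.13, with 8 ratios above 0 and 7 below. Cxcl2, a neutrophil attractant, was at 7.47 CPM with 25-HC and 1.92 with PF429424 (1.91), and Il1a, an interleukin-1 cytokine gene, at 10.8 and 3.64 CPM (1.55). Both were above IL4 alone, at 1.44 and 2.19 CPM, in the 25-HC library. Cxcl16, a membrane-bound chemokine, was at 39.8 and 12.1 CPM (1.71) with IL4 alone at 54.6, so here the PF429424 library stood apart. Il1b had 45 and 4 counts (2.87).

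The chemokine genes Ccl6, at 233 and 495 CPM (-1.08), and Ccl12, at 1.37 and 4.58 CPM (-1.68), were higher with PF429424. With library totals Ccl6 is at -0.98 and not called. Osm, the cytokine oncostatin M, had a ratio of 0.92, or 1.02 and a call with library totals. Genes of antigen presentation on MHC class II were called in neither direction, 0 of 10, beside 3.69% of all genes. Their median was -0.35, with 9 ratios below 0. H2-Ab1 was at 11.8 and 14.3 CPM (-0.27), both under the 36.4 CPM of IL4 alone.

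Surface receptors were called higher with 25-HC in 5 of 22 cases (22.7%) and with PF429424 in 1 (4.55%), beside 1.88% and 1.81% of all genes. Their median was 0.26. Cxcr4, the receptor of Cxcl12, was at 118 CPM with 25-HC and 40.9 with PF429424 (1.53), with 93.0 for IL4 alone. Ccr2, the receptor by which monocytes leave the marrow, was at 13.4 and 5.81 CPM (1.196), both below the 38.1 of IL4 alone. The other calls were Ccr3 (1.13), Cx3cr1 and the formyl peptide receptor gene Fpr2 (2.13, from 26 and 4 counts), and towards PF429424 the niacin receptor gene Hcar2 (-1.04). On log2(FPKM + 1) the list had 1 call higher with 25-HC and 0 with PF429424, with Ccr2 and Ccr3 among the calls lost. With library totals it had 5 and 0.

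Among scavenger and complement genes 4 of 20 (20.0%) were called higher with 25-HC and 1 (5.0%) with PF429424, which is Mrc1. Over all genes the shares were 1.88% and 1.81%. The list's median was 0.30. Axl, a receptor for apoptotic cells, was at 176 CPM with 25-HC and 79.7 with PF429424 (1.14), and the 25-HC library was close to IL4 alone at 184. The complement gene C3 was at 38.7 and 15.9 CPM (1.28), both below the 89.6 of IL4 alone. Cd5l, a macrophage survival protein that is a known LXR target, was at 8.29 and 3.35 CPM (1.28), and Olr1, a receptor for oxidised LDL, at 11.3 and 4.04 CPM (1.47, not called on log2(FPKM + 1)).

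Lysosomal and lipid-associated genes leaned towards PF429424. Gpnmb, a lysosomal membrane glycoprotein, was the most abundant gene of the PF429424 library, at 22632 CPM against 10975 with 25-HC (-1.04), and the other 4 libraries lay between 5948 and 12943 CPM. The call is lost with library totals, at -0.94. The proteases Ctsd, at 9758 and 17798 CPM (-0.87), and Ctsb, at 9238 and 13728 CPM (-0.57), were not called. Of 24 genes 1 (4.17%), Gpnmb, was called higher with PF429424, beside 1.81% of all genes, and none with 25-HC. Ratios below 0 numbered 22, or 19 with library totals. The list's median was -0.37, against -0.00248 for all genes. The 10 most abundant genes took 14.03% of all counts with PF429424 and 10.56% with 25-HC.

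Matrix genes were split, with 3 of 24 (12.5%) called in each direction, beside 1.88% higher with 25-HC and 1.81% with PF429424 over all genes. Pdgfb, a growth factor for stromal cells, was at 144 CPM with 25-HC and 57.2 with PF429424 (1.33). Vegfa, the angiogenic growth factor, was at 164 and 75.7 CPM (1.12). The protease inhibitors Timp2, at 48.5 and 114 CPM (-1.24), and Timp3 (-1.04) were higher with PF429424. The coagulation factor gene F13a1 was at 9.29 and 22.0 CPM (-1.24), with 135 for IL4 alone, and loses its call on log2(FPKM + 1), as does Mmp9 (1.12). The list's calls were 3 and 2 with library totals and 2 and 1 on log2(FPKM + 1), higher with 25-HC first.

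Iron and metal genes had 2 calls of 19 (10.5%, beside 1.81% of all genes), both towards PF429424: Tfrc, and the metallothionein gene Mt2 at 1.82 and 6.10 CPM (-1.69). Mt1 was at 37.4 and 73.0 CPM (-0.96). The iron exporter gene Slc40a1 was at 46.3 and 31.4 CPM (0.56) and the ferritin gene Fth1 at 7039 and 11182 CPM (-0.67). NRF2 targets had 1 call of 21, higher with PF429424 (4.76%, beside 1.81% of all genes), and a median of -0.03. Glycolysis and hypoxia genes had 1 of 27 (3.7%) in each direction, beside 1.88% and 1.81% of all genes, and a median of 0.00.

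Cell cycle genes differed little, with most ratios above 0. None of 36 mitosis genes was called, beside 3.69% of all genes, while 35 of their ratios were above 0, with a median of 0.35. The largest were Ndc80, a kinetochore gene, at 21.0 CPM with 25-HC and 12.4 with PF429424 (0.75), and Prc1, a spindle midzone gene, at 63.5 and 38.9 CPM (0.70). Both genes were higher with IL4 alone, at 31.4 and 88.8 CPM. The list's medians against IL4 were -0.81 with 25-HC and -1.18 with PF429424. None of 35 DNA replication genes was called either, beside the same share of all genes. Their median was 0.20, with 30 ratios above 0 and 5 below. E2f1 was among those below, at 33.4 CPM with 25-HC and 43.1 with PF429424 (-0.37).

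Of the other cell types, the erythroid and platelet markers had the highest sum, 202 CPM with 25-HC and 319.6 with PF429424, nearly all of it the platelet chemokine gene Pf4, at 197 and 317 CPM. Of its 3 members compared, Ppbp alone was called, higher with 25-HC (1.28, from 66 and 24 counts), beside 1.88% of all genes. Stromal markers had no call among 9, beside 3.69% of all genes, and summed to 90.1 CPM with 25-HC and 67.1 with PF429424. Lymphocyte markers summed to 7.06 and 8.52 CPM, with Cd3g at 0 in both, and dendritic cell markers to 11.9 and 13.5 CPM. Mast cell and basophil markers summed to 23.5 and 14.7 CPM, most of it Gata2, with Cpa3 and Ms4a2 at 0 in both. Hdc, the histamine-forming enzyme of that list, had 44 counts with 25-HC and 1 with PF429424 (3.85, interval 2.79 to 10.7). It was the only call among the 2 members of that list compared, beside 1.88% of all genes. Of 3 eosinophil markers compared, Ccr3 was called higher with 25-HC and none with PF429424, beside 1.88% and 1.81% of all genes.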

How the data were processed

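Total RNA, 1 ug per library, of 6 macrophage cultures was sequenced, and 2 libraries are compared here. The authors deposited, per the file headers, an estimated count (RSEM's expected count) for each gene, not scaled between libraries. The deposited FPKM values are, per the file headers, relative to transcript length and sequencing depth. Tools listed in the submitters' processing notes are HISAT2, Bowtie2, RSEM (version 1.2.12) and DESeq2, with no step assigned to any. No source used here states whether counting used strand, so overlapping antisense genes cannot be separated. Counts were rounded, then scaled by TMM in edgeR 4.0.16 (R 4.3.3) across all 6 libraries, with factors of 1.037 for 25-HC and 0.9668 for PF429424. The expression limit, 1 CPM in any of the 6 libraries, kept 11898 of 16775 genes. At that limit Clic5 lay just inside (1.002 CPM) and Cxcl9 just outside (0.9995). Ratios used a prior count of 2, and intervals are Clopper-Pearson (SciPy 1.17.1). A floor of 3 counts is 0.137 CPM with 25-HC and 0.148 with PF429424. With 1 library per treatment no test was run. The procedure was tested on simulated data.

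Named genes are the 15 highest and 15 lowest ratios among regular symbols with at least 50 counts and 5 CPM in either library, the 5 largest ratios of each of 30 lists at 5 CPM, and 14 genes always named; some are left out, and members outside this rule were named after their values were seen. The members and lists were chosen with earlier results of these data known, and the repeat search with its mismatch limit was added after seeing the data. Promoters and positions are RefSeq's, GRCm38.p6; 13141 of 16775 genes had a promoter, and 335 of 439 called ones.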

Additional observations from a re-analysis of the deposited data

Results flagged for a closer look

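Among the named genes, 6 were called in opposite directions against the IL4 library with the 2 compounds. Each comparison has 1 library on each side and both share the IL4 library, so the difference was not tested. Their direct log2 ratios, 25-HC over PF429424, were 6.74 for Abca1, 5.91 for Scd1, 5.90 for Scd2, 3.66 for Ltf, 3.51 for Lcn2 and 2.94 for Mylip. Against IL4, Abca1 was at 4.06 with 25-HC and -2.68 with PF429424, Scd1 at 3.11 and -2.80, and Scd2 at 4.66 and -1.24. Ltf was at 1.04 and -2.63, Lcn2 at 1.05 and -2.47, and Mylip at 1.73 and -1.21. All 6 are higher with 25-HC than with IL4 alone and lower with PF429424. Among all genes compared this order held for 9, and the opposite order for 1.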

How the results depend on the processing

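No paired analysis was possible because each treatment has 1 library, and for the same reason no replicate could be left out. The 439 calls became 190 (97 higher with 25-HC, 93 with PF429424) with a CPM of at least 5 required in either library, and 146 (93 and 53) on log2(FPKM + 1). A prior count of 10 left 139 genes higher with PF429424. DESeq2 1.42.0 size factors, library totals, TMM over the 2 libraries, no filter and a prior count of 0.5 kept the total within 1.5 times, at 440, 457, 440, 560 and 465. Each of the 439 genes kept its sign under every alternative in which it had a value, 190 of them with the limit of 5 CPM. As these genes were chosen for ratios of at least 2-fold, the kept signs follow largely from that choice and are no separate support. Library totals kept 394 of the calls and log2(FPKM + 1) kept 136.

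With library totals, list medians moved to 0.14 for SREBP processing, -0.0585 for tRNA synthetases, 0.0706 for NRF2 targets, 0.41 for scavenger and complement genes, 0.30 for DNA replication and 0.46 for mitosis. On log2(FPKM + 1) they moved to 0.14 for SREBP processing, -0.0619 for tRNA synthetases, 0.0716 for NRF2 targets, -0.43 for antiviral genes, 0.26 for DNA replication and 0.54 for eosinophil markers. Without a filter the medians were 0.56 for eosinophil and 0.26 for lymphocyte markers. Library totals shift all genes together by construction, and a pseudocount of 1 FPKM shrinks the ratios of low genes; other causes were not tested. Ratios of genes under about 50 counts have wide counting intervals.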

Other observations

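The largest ratios in size outside the named genes belong to predicted genes, chosen here after their values were seen. Gm14434 had 1 count with 25-HC and 255 with PF429424, a log2 ratio of -6.48, and 0 counts with 1,10-Phen. LOC102639653 had 174 counts with 25-HC and 0 with PF429424 and with IL4 alone, and 70, 123 and 125 counts with fatostatin, betulin and 1,10-Phen. LOC102633156 had 0 counts with 25-HC and 90 with PF429424, 158 with IL4 alone and 0 in the other 3 libraries. Estimated counts divide reads among similar sequences, so such levels are uncertain; this was not tested for these genes.

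Lipg, which encodes endothelial lipase, stood outside every list with 82 counts with 25-HC and 6 with PF429424, a log2 ratio of 3.29 (2.48 to 5.15). In the other libraries it had 71 counts with IL4 alone, 86 with fatostatin, 91 with betulin and 3 with 1,10-Phen. The PF429424 and 1,10-Phen libraries thus held few counts of it and the other 4 between 71 and 91.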
